A study of Mus musculus with 16 samples.

Results

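The secreted peptides of mouse sensory neurons were followed through 10 genes, *Sct*, *Uts2b*, *Reg3b*, *Calca*, *Calcb*, *Gal*, *Adcyap1*, *Npy*, *Sst* and *Nppb*, of the 49671 genes counted. They were chosen by name as peptide or secreted-protein genes of dorsal root ganglion (DRG) neurons, with values of these data in view, and were read in wells selected on at least 10000 unique molecular identifiers (UMIs) and at least 100 CPM (counts of a gene scaled by the total of the well or sum) of *Avil* and *Isl1* together. *Avil* and *Isl1* mark postmitotic sensory neurons, and 799 of the 1536 wells passed. Which of the 10 genes separate subsets of proprioceptors, and which are carried by other sensory neurons, was the question asked of the data.

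Neuropeptides are made as longer precursors that prohormone convertases and carboxypeptidases trim inside dense-core granules. Many are then amidated at a glycine left at the end of the peptide, and are released to act on G protein-coupled receptors of neighbouring cells. In the DRG the classical peptides belong to other classes than the proprioceptors: the calcitonin gene-related peptides and galanin to nociceptors, and somatostatin and the natriuretic peptide of *Nppb* to itch-related neurons. *Adcyap1* encodes PACAP and *Sct* encodes secretin, members of one hormone family. *Uts2b* encodes urotensin II-related peptide, a short cyclic peptide, and *Npy* encodes neuropeptide Y. *Reg3b* is the exception among the members, since it encodes a secreted C-type lectin rather than a neuropeptide and is known from gut epithelium and injured nerve.

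The study sequenced single tdTomato-positive cells of DRG with CEL-Seq2, a plate method that counts UMIs near the 3′ end of transcripts, to compare proprioceptors that reach different muscles. The embryonic day (e) 15.5 group held 10 libraries of 96 wells from PvtdTom mice, a BAC line in which the parvalbumin promoter drives tdTomato. The postnatal day (p) 1 group held 6 libraries of 96 wells labelled Trpv1Cre; PvFlp; Ai65 and PvCre; Ai14, in which tdTomato needs either both *Trpv1*-driven Cre and parvalbumin-driven Flp or parvalbumin-driven Cre alone. The labels assign neither a line nor a segmental level to a single library, and nothing says how many animals each holds, so the spread between libraries may be partly technical. The e15.5 cells were sorted by flow cytometry, and the p1 cells were picked by hand according to the study's methods, although their labels name sorting. The study reports that the line with *Trpv1*-driven Cre labels proprioceptors of back muscles. The p1 libraries thus sampled proprioceptors differently from those of e15.5. Age, line and isolation cannot be told apart.

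Sensory wells were divided by marker levels, with no peptide gene in a cut, into proprioceptors (*Pvalb*, *Runx3*, *Etv1* and *Ntrk3*), a nociceptor cut (a summed set that includes *Scn10a*, *Prdm12* and *P2rx3*) and a mechanoreceptor cut (*Maf*, *Ntrk2*, *Ret* and *Mafa*). Proprioceptors made up 354 of 434 sensory wells at e15.5 and 360 of 365 at p1. At e15.5, 41 wells met the nociceptor cut and 32 the mechanoreceptor cut, but 24 of these 32 also carried collagen transcripts, so that cut is given no cell type name here. Of the sensory wells, 34 at e15.5 and 11 at p1 lay within a factor of 2 of a proprioceptor cut, and 40 and 24 within that factor of the *Avil* and *Isl1* cut. Library totals ran from 3701900 to 9299431 UMIs at e15.5 and from 386517 to 8814472 at p1, where library 3 stood apart with 11 proprioceptor wells of a median of 12171 UMIs. The median proprioceptor well held 110858 UMIs at e15.5 and 55518.5 at p1. Transcripts of glia reached 200 CPM in 72 of 354 proprioceptor wells at e15.5 and 87 of 360 at p1, and the connective wells of e15.5 (366, with at least 1000 CPM of collagen transcripts and less than 100 CPM of *Avil* and *Isl1*) served as the background for shares of wells.

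The peptides themselves are short, and 3 pairs of members were compared by the codons that make them. The sequences below come from the GRCm38 genome with GENCODE M21, read 5′ to 3′ on the coding strand. For *Sct* (chr7:141278835-141278924, minus strand) and *Adcyap1* (chr17:93203990-93204079, plus strand) the 30 codons of the shared hormone family are given, because these genes behaved differently in proprioceptors. Capitals mark the opening His-Ser-Asp-Gly codons and the closing glycine and basic pair, the signal for amidation and cleavage. Each stretch ends at the first such signal after the opening codons, and longer forms of a peptide were not examined.

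Sct: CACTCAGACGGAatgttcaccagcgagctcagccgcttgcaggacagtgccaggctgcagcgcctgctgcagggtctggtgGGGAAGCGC

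Adcyap1: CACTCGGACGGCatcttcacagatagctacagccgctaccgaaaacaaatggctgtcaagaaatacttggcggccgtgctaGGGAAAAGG

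The 2 stretches encode the same residue at 12 of 30 codons (40%). *Uts2b* ends in the 8 codons of its cyclic peptide (chr16:27353715-27360939, minus strand, split by an intron), and they are set beside the 14 codons of somatostatin-14 from *Sst* (chr16:23889732-23889773, minus strand). Capitals mark the Phe-Trp-Lys codons that both rings share. Of the 8 codons aligned on them, 3 encode the same residue.

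Uts2b: gcttgtTTTTGGAAGtactgtgtc

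Sst: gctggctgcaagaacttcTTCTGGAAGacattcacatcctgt

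*Calca* (chr7:114632461-114632580, minus strand) and *Calcb* (chr7:114721994-114722113, plus strand) lie near each other on chromosome 7 and encode the α and β forms of calcitonin gene-related peptide. Capitals mark the first ring codons after the leading serine and the closing Gly-Arg-Arg codons.

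Calca: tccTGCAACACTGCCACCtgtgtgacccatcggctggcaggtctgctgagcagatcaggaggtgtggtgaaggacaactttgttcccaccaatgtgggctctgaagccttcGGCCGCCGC

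Calcb: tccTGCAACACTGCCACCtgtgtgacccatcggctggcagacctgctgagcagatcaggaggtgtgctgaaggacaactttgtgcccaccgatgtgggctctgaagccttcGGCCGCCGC

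These stretches share 115 of 120 bases (95.8%) and 37 of 40 residues. How reads were divided between the 2 genes was not examined, and their counts are given as uncertain. The gene-level count of *Calca* covers calcitonin and the gene-related peptide together. The genes were otherwise apart in the genome: *Reg3b* lies at chr6:78370657-78373466, *Npy* at chr6:49822710-49829507, *Gal* at chr19:3409915-3414544 and *Nppb* at chr4:147985788-147987205.

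In proprioceptors, *Adcyap1*, *Uts2b*, *Sct* and *Gal* were found in every e15.5 library, *Reg3b* was high in a few, and *Calca*, *Calcb*, *Npy*, *Sst* and *Nppb* were near the detection limit in most. Levels are CPM of the wells of a library summed, and they compare samples for 1 gene, since UMI counts of different genes were not scaled by length. *Adcyap1* was 82.6, 75.5, 57.6, 65.0, 78.0, 99.8, 81.7, 82.4, 71.2 and 83.5 CPM in e15.5 libraries 1 to 10. At p1 it was 122, 104, 85.0, 76.7, 90.2 and 87.5 CPM in libraries 1 to 6. It was more even over libraries than *Sct*, *Uts2b*, *Gal* or *Reg3b*, with a mean of 77.7 ± 11.5 CPM (SD, n = 10 libraries) at e15.5 and 94.2 ± 16.2 (n = 6) at p1.

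*Sct* was 23.9, 46.8, 6.77, 25.7, 11.4, 39.8, 43.2, 48.0, 63.8 and 34.3 CPM in e15.5 libraries 1 to 10, highest in library 9 and lowest in library 3. At p1 it was 5.59, 8.13, 0, 3.17, 7.05 and 0.458 CPM. All but 1 of the e15.5 libraries exceeded every p1 value, library 3 being the exception at 6.77 CPM. The 0 in p1 library 3 allows up to 17.0 CPM, the level of 3 UMIs at its depth, and says little about that library.

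*Uts2b* was 51.8, 35.9, 7.34, 24.2, 25.9, 72.4, 69.7, 51.6, 62.8 and 46.3 CPM at e15.5, and 15.6, 53.4, 73.7, 9.51, 40.9 and 10.1 CPM at p1. The ages overlapped over nearly the whole range. Within p1 the libraries fell apart, with libraries 2, 3 and 5 at 40.9 CPM or more and libraries 1, 4 and 6 at 15.6 or less. *Hoxc10*, a gene of lumbar segments, was 51.2, 56.7 and 59.0 CPM in libraries 2, 3 and 5, and 4.10, 10.8 and 74.2 CPM in libraries 1, 4 and 6, and the part of segmental level was not tested. *Gal* was 37.8, 19.97, 49.1, 6.05, 37.9, 99.8, 45.4, 35.6, 39.8 and 81.4 CPM at e15.5, where library 6 was highest and library 4 lowest. At p1 it was 1.48, 8.43, 0, 2.54, 14.6 and 2.75 CPM, and all but library 4 of e15.5 exceeded every p1 value.

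*Reg3b* was unlike the others in being concentrated in a few libraries. It was 148, 403 and 173 CPM in e15.5 libraries 7, 8 and 9, 18.3 in library 10, 7.71 in library 1 and 2.67 or less in libraries 2 to 6. At p1 it was 20.9 CPM in library 2, 15.04 in library 5, 1.604 in library 6 and 0 in libraries 1, 3 and 4. *Hoxc10* was 115 to 145 CPM in the proprioceptor sums of e15.5 libraries 6 to 10 and 3.02 to 46.2 in libraries 1 to 5. Libraries 7 to 10 thus had both genes, while library 6 had *Hoxc10* at 124 CPM and no *Reg3b* UMI in 15 wells, and the part of segmental level in the result was not tested.

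**Figure D1:**
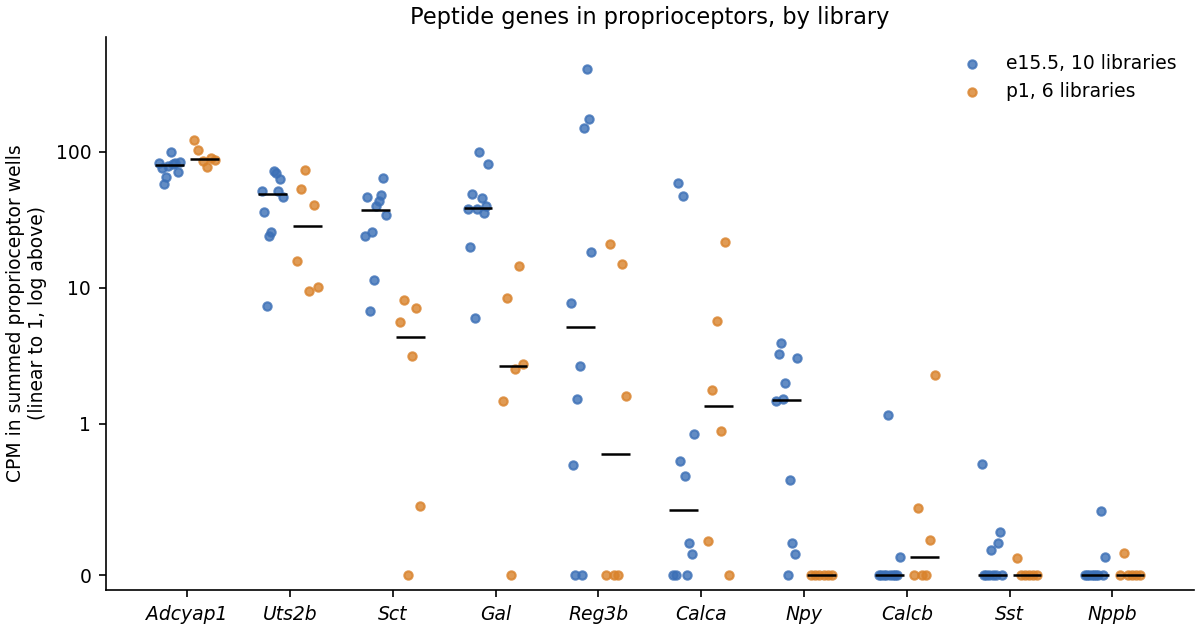
Level of each member in CPM (linear to 1, logarithmic above) in the summed proprioceptor wells, 1 point per library, with 10 libraries at e15.5 (blue) and 6 at p1 (orange); black bars are medians. *Sct* and *Gal* medians fell from 37.0 to 4.38 and from 38.9 to 2.64 CPM, *Adcyap1* stayed between 57.6 and 122 CPM, and *Reg3b* ran from 0 to 403 CPM at e15.5.

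The remaining 5 members were nearly absent from proprioceptors. *Calca* exceeded 1 CPM in 2 of 10 libraries at e15.5, with 58.7 CPM in library 3 and 46.9 in library 5, and its 3 positive wells also held 875 to 1472 CPM of the nociceptor markers, against a median of 50.7 over all proprioceptor wells. At p1 *Calca* was 21.6 CPM in library 5, 5.67 in library 3 and at most 1.77 elsewhere. *Npy* was between 0 and 3.95 CPM at e15.5 and had 0 UMIs in all 360 p1 wells. *Calcb* reached at most 1.17 CPM at e15.5 and 2.29 at p1, *Sst* at most 0.734 and 0.114, and *Nppb* at most 0.427 and 0.148. None of *Calcb*, *Sst* or *Nppb* was positive in any proprioceptor well, which for 0 of 354 wells allows a share of up to 0.847%.

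A level summed over a library does not tell a gene that is on weakly in all cells from one that is on strongly in some, and the wells were therefore read singly. A well was called positive with at least 2 UMIs and at least 50 CPM of the gene. *Adcyap1* was positive in 205 of 354 wells at e15.5 (57.9%) and 203 of 360 at p1 (56.4%), and found with any UMI in 88.1% and 80.3%. Its positive wells at e15.5 were deeper than the rest, with medians of 126045 and 69169 UMIs, and the part of depth in the call was not tested. PACAP mRNA was thus spread over most proprioceptors and picked out no narrow subset.

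*Uts2b* was positive in 113 of 354 wells at e15.5 (31.9%, 95% exact binomial interval 27.1 to 37.1) and in 55 of 360 at p1 (15.3%, 11.7 to 19.4). *Sct* was positive in 70 (19.8%, 15.8 to 24.3) and in 11 (3.06%, 1.53 to 5.40). *Gal* was positive in 85 (24.0%, 19.7 to 28.8) and in 4 (1.11%, 0.304 to 2.82). These 3 genes marked minorities of the e15.5 proprioceptors, with median depths of 113434, 113110 and 113266 UMIs in the wells positive for *Sct*, *Uts2b* and *Gal* and of 110235, 109396 and 109948 in the others. The intervals cover counting error only.

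*Reg3b* was positive in 26 wells at e15.5 (7.34%, 4.85 to 10.6) and in 5 at p1 (1.39%, 0.452 to 3.21). It was the steepest of the members: 10 wells held 88.5% of its 3789 UMIs at e15.5, and 9 wells in 3 libraries exceeded 1000 CPM, the highest with 3918 CPM. For *Adcyap1* the 10 highest wells held 11.6%, for *Uts2b* 20.3%, for *Sct* 34.4% and for *Gal* 41.5%. In the curves of ranked wells *Reg3b* therefore falls from the highest start to nothing within a fraction of the wells that *Adcyap1* covers.

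**Figure D2:**
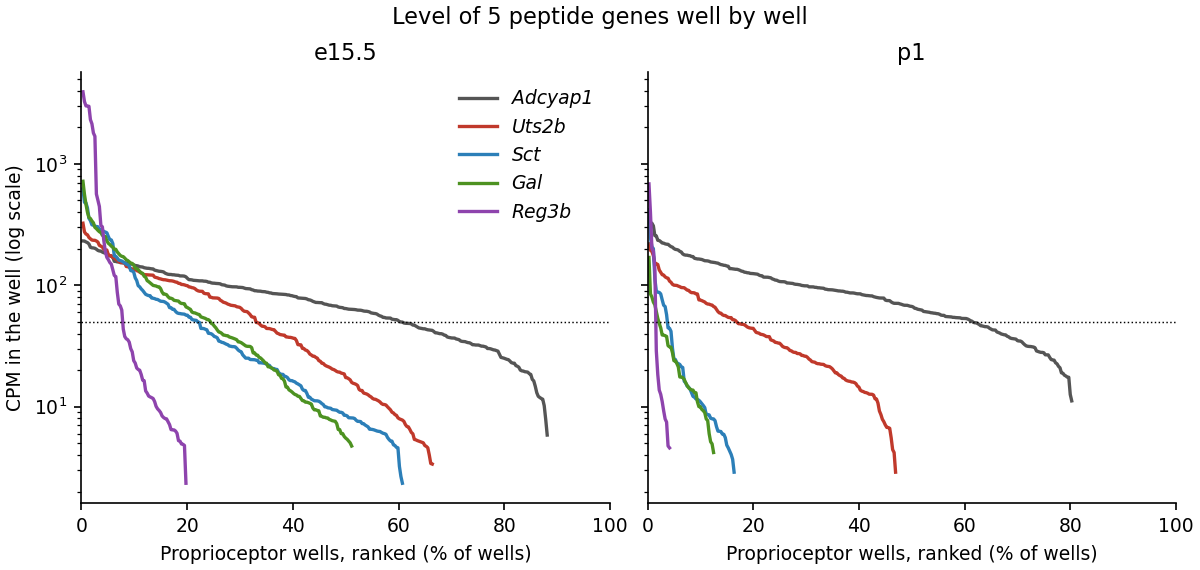
CPM of 5 members in single proprioceptor wells (logarithmic axis), ranked from high to low and drawn as a percent of the 354 wells at e15.5 (left) and 360 at p1 (right); wells without a UMI are not drawn, and the dotted line is the 50 CPM cut. *Adcyap1* was found in 88.1% and 80.3% of wells, whereas *Reg3b* was found in 19.8% and 4.17% and reached 3918 CPM at e15.5.

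Connective wells of the same e15.5 plates gave the background. There *Sct* was positive in 2 of 366 wells (0.546%), *Uts2b* in 0, *Reg3b* in 1, and *Gal* and *Adcyap1* in 3 each, at a median of 28259 UMIs. *Calca* was positive in 23 connective wells (6.28%) and *Npy* in 8 (2.19%). Their shares in proprioceptors, 0.847% and 0.282%, did not exceed that background. With every well thinned to 10000 UMIs and any UMI counted, *Sct* was found in 19.5% of e15.5 and 4.72% of p1 proprioceptors, *Gal* in 22.3% and 2.78%, *Reg3b* in 7.34% and 1.67%, *Uts2b* in 29.7% and 20%, and *Adcyap1* in 45.8% and 48.6%. Glial transcripts reached 200 CPM in 11.4% of the *Sct*-positive and 22.5% of the *Sct*-negative e15.5 wells, and in 12.4% and 24.1% for *Uts2b*, a difference whose part in the results was not tested.

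*Sct*, *Gal* and *Reg3b* were lower and *Adcyap1* was slightly higher in p1 than in e15.5 proprioceptors, and no difference of *Uts2b* was shown. Mouse line differs with age here, and the part of age itself was not tested. The sums of 10 and 6 libraries were compared with the edgeR quasi-likelihood test, in which 8754 of 13955 genes passed an adjusted p of 0.05 (62.7% in either direction, 30.7% higher and 32.0% lower at p1). Of the 10 members 5 had enough counts to be tested, and 1 was higher and 3 were lower, so the share called is near that of genes at large. The members were chosen with values of these data in view, so their age tests are not independent evidence. *Sct*, *Gal* and *Reg3b* had their counts mainly at e15.5, with p1 medians of 4.38, 2.64 and 0.802 CPM. *Sct* fell by 2.55 on the log2 scale (SE 0.47, adjusted p = 8.9e-05) and *Gal* fell by 2.73 (SE 0.51, adjusted p = 0.00012). *Adcyap1* rose by 0.53 (SE 0.11, adjusted p = 0.00030), and by 0.30 with the sums scaled by their totals alone. *Uts2b* differed by -0.46 (95% interval -1.28 to 0.37, adjusted p = 0.36).

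*Reg3b* fell by 3.12 (SE 1.297, adjusted p = 0.042), but without e15.5 library 8 the difference was -2.23 (adjusted p = 0.11). The call was lost in 11 of its 27 alternatives, among them leaving out e15.5 library 7 or 9 or p1 library 1, 3, 4, 5 or 6 (adjusted p = 0.053 to 0.087). With the libraries paired by their number (a replicate block, although the numbers are only names) *Reg3b* was 1.51 higher at p1 (adjusted p = 0.25). Without the scaling factors of edgeR the median difference of all genes moved from -0.03 to -0.27, with 3039 genes higher and 6151 lower in place of 4283 and 4471. The directions of *Sct*, *Gal*, *Adcyap1*, *Reg3b* and *Uts2b* were the same under that scaling. Among all genes tested, libraries of the 2 ages did not overlap for 27.4%, and none of these 5 members was among them.

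The wells of the nociceptor cut carried *Gal* at several times the level of proprioceptors and almost no *Sct* or *Reg3b*. They are described without a test, because the members were chosen for how they divide the classes, and wells with collagen transcripts were left out, which left 29 wells in 5 libraries with at least 3 of them. *Gal* was 137, 303 and 612 CPM (lowest, median and highest library) in these wells and 6.39, 40.02 and 81.4 in the proprioceptors of the same libraries. It was higher in 5 of 5 libraries, and 30 of all 41 wells of the cut were positive (73.2%). *Sct* was 0, 1.36 and 2.49 CPM against 6.27, 27.2 and 64.1, lower in 5 of 5 libraries, and 0 of 41 wells were positive, which allows a share of up to 7.32%.

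*Uts2b* was uneven in the nociceptor cut, at 0, 13.6 and 209 CPM against 7.41, 43.6 and 62.9 in proprioceptors. It was higher in 3 libraries and lower in 2, and 4 wells of 4 libraries held 75.8% of its 240 UMIs there. *Adcyap1* was 19.9, 72.9 and 91.7 CPM against 58.1, 71.4 and 84.1, overlapping fully, and was positive in 24 of 41 wells (58.5%), close to its 57.9% in proprioceptors. *Reg3b* reached at most 2.57 CPM in the cut and was positive in none of its wells. With 41 wells this allows the same upper share as for *Sct*, close to the 7.34% of *Reg3b* in proprioceptors. Libraries 1 and 3 gave 11 wells each to the cut, and *Reg3b* was 7.71 and 0 CPM in their proprioceptors. PACAP mRNA was thus found in both classes, and *Gal* was higher in the nociceptor cut. Wells positive for *Sct* were found among proprioceptors and not in the cut, whereas for *Reg3b* the wells of the cut were too few to show a difference.

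*Calca* reached 204 CPM in 1 of the 5 libraries of the nociceptor cut and was 0 to 48.6 in the others. A single well held 290 of the 350 *Calca* UMIs of the 41 wells, and 4 wells held 94.9% of them, so the sum does not describe the class. *Calcb* was alike, with 20 of 24 UMIs in 1 well. *Npy*, *Sst* and *Nppb* had 6, 1 and 1 UMIs in the 41 wells. The 8 collagen-free wells of the mechanoreceptor cut held *Gal* at 65.6 CPM, *Adcyap1* at 39.8 and *Uts2b* at 33.8 CPM, and no UMI of *Sct* or *Reg3b*. With 8 wells of a median of 22880 UMIs, the lack of *Sct* and *Reg3b* there says little. At p1 only 5 sensory wells lay outside the proprioceptor cut, and no class was compared there.

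**Figure D3:**
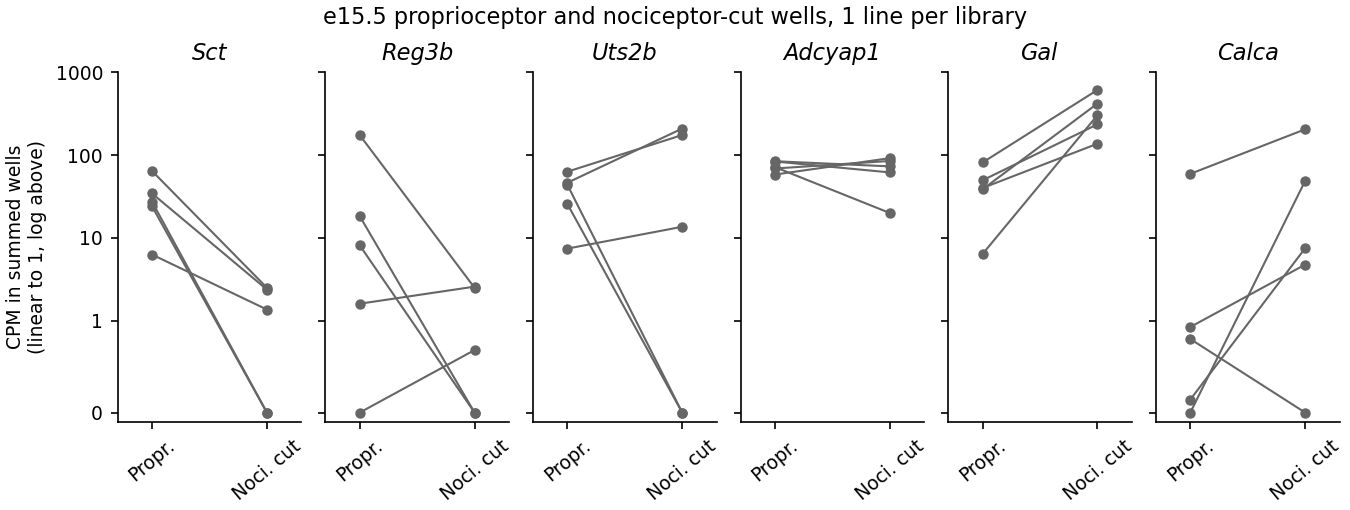
CPM (linear to 1, logarithmic above) of 6 members in e15.5 proprioceptor wells (left of each panel) and collagen-free wells of the nociceptor cut (right), summed per library; each line joins the 2 sums of 1 of 5 libraries. The right end is higher on all 5 lines for *Gal* and lower on all 5 for *Sct*, while those of *Adcyap1* stay between 19.9 and 91.7 CPM and those of *Uts2b* cross.

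The peptides overlapped within the proprioceptors. At e15.5, 48 wells were positive for both *Sct* and *Uts2b*, which is 68.6% of the *Sct*-positive and 42.5% of the *Uts2b*-positive wells. *Uts2b* was positive in 22.9% of the *Sct*-negative wells. The pair is described without a test, since it was known to lead 1 group of cells. *Gal* was positive in 42 of the 113 *Uts2b*-positive wells (37.2%) and in 17.8% of the others, but in only 2 of the 26 *Reg3b*-positive wells (7.69%).

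Of the 354 e15.5 wells 282 (79.7%) were positive for at least 1 of *Sct*, *Uts2b*, *Reg3b*, *Gal* and *Adcyap1*, and 226 of 360 (62.8%) at p1. *Sct*, *Uts2b* or *Reg3b* was positive in 145 wells (41.0%) at e15.5 and in 61 (16.9%) at p1, with all 3 positive in 7 wells and in 0. At p1, *Uts2b* was positive in 7 of 11 *Sct*-positive wells (63.6%) and in 3 of 5 *Reg3b*-positive wells. *Adcyap1* was positive in 54.9% of the *Uts2b*-positive e15.5 wells and in 59.3% of the others.

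**Figure D4:**
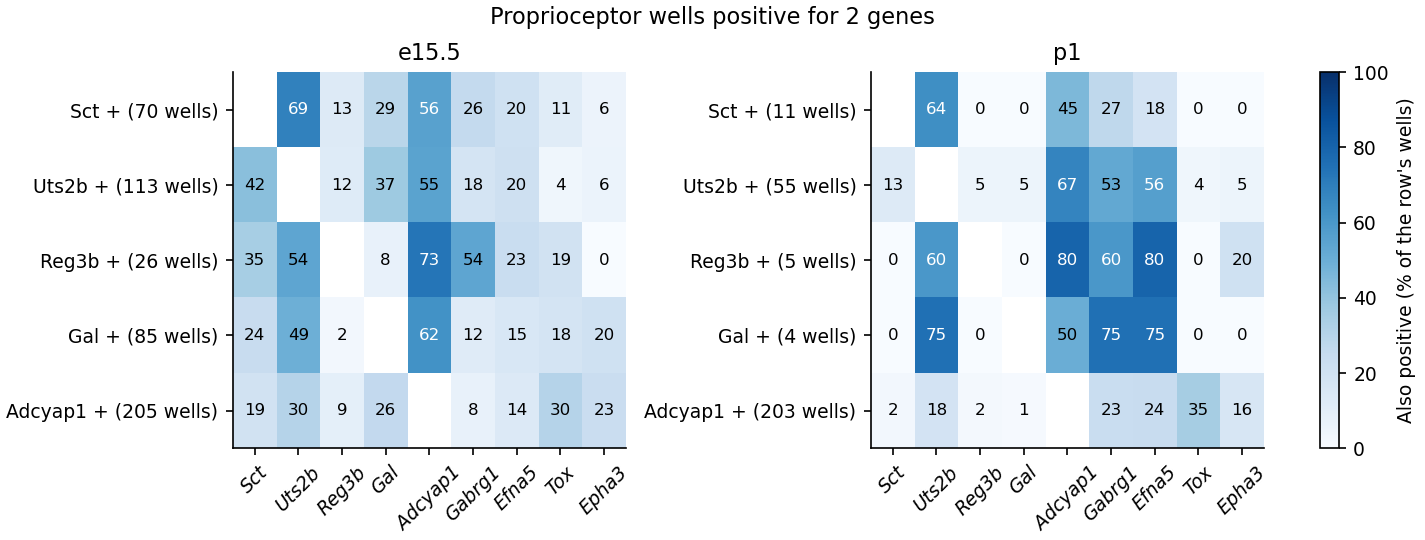
Percent of the proprioceptor wells positive for the gene of a row that were also positive for the gene of a column, at e15.5 (left) and p1 (right); the number of positive wells stands beside each row. *Uts2b* was positive in 68.6% of *Sct*-positive wells at e15.5 and 63.6% at p1, and *Tox* in 3.54% and 3.64% of *Uts2b*-positive wells.

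Whether the peptides follow the muscle-type markers was asked next, with *Tox* and *Epha3* (back), *Gabrg1* and *Efna5* (hindlimb) and *C1ql2* (abdominal) as the study assigned them. Those genes were selected by the study on these same samples, so their directions are not independent evidence. *Tox*, a nuclear HMG-box protein, was 0, 6.05 and 14.4 CPM (lowest, median and highest of 8 libraries) in *Uts2b*-positive e15.5 proprioceptors. In the *Uts2b*-negative wells of the same libraries it was 21.1, 44.9 and 58.5 CPM, and *Tox* was lower in the positive wells of 8 of 8 libraries. With the library as a block *Tox* fell by 2.74 on the log2 scale in *Uts2b*-positive wells (SE 0.28, adjusted p = 0.00012 by the edgeR quasi-likelihood test).

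*Epha3*, an ephrin-A receptor, was also lower in the *Uts2b*-positive wells, at 6.92, 9.95 and 41.7 CPM against 23.7, 30.1 and 57.8. It fell by 1.16 (SE 0.21, adjusted p = 0.0061) and was lower in 7 of 8 libraries, all but library 6, with overlap between the groups. *Gabrg1*, a GABA-A receptor subunit, went the other way, at 0, 24.3 and 83.0 CPM against 0.566, 6.56 and 30.8. It rose by 2.18 (SE 0.32, adjusted p = 0.0015) in 6 of 8 libraries, the exceptions being libraries 2 and 6, and its groups overlapped. *Efna5*, the ligand ephrin-A5, differed by 0.17 (95% interval -0.33 to 0.67), and *C1ql2* by 0.68 (-0.34 to 1.70), neither past the test. Between the ages *Gabrg1* rose by 2.28 (SE 0.70, adjusted p = 0.0080) and *Efna5* by 1.02 (SE 0.35, adjusted p = 0.016) from e15.5 to p1. *Tox* (0.66), *Epha3* (-0.19) and *C1ql2* (-0.62) were not called between the ages. The 2 of 5 called stand against 62.7% of all genes in the age comparison, in which mouse line also differs.

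Between *Uts2b*-positive and negative e15.5 wells 5 of 6 genes of the muscle-type list were thus tested. Of these, 1 was higher and 2 were lower, against 3.27% of all 11427 genes tested there, the dividing gene included (1.72% higher and 1.56% lower). Of the members, *Gal* rose by 1.26 in *Uts2b*-positive wells (SE 0.20, adjusted p = 0.0022), from 13.3, 26.8 and 50.6 CPM to 32.4, 60.8 and 172, higher in 7 of 8 libraries, all but library 5. *Reg3b* differed by 0.48 (-0.50 to 1.47) and *Adcyap1* by -0.20 (-0.49 to 0.09), neither past the test. *Sct* was 39.3 to 126 CPM in *Uts2b*-positive and 6.63 to 35.4 CPM in *Uts2b*-negative sums, given without a test as above.

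At p1 the comparison could be made in 3 libraries. *Tox* was 2.90, 0.340 and 1.93 CPM in the *Uts2b*-positive wells of libraries 1, 2 and 5 and 56.6, 7.59 and 42.6 CPM in their *Uts2b*-negative wells. The positive sums held 3, 30 and 17 wells and as few as 344430 UMIs, so their *Tox* levels rest on very few UMIs. *Tox* fell by 4.38 (SE 0.36, adjusted p = 0.0052) and was, beside *Uts2b* itself, the only gene called among 12670 (0.0158%, with 0.00789% higher and 0.00789% lower). At an unadjusted p under 0.05 edgeR had 475 genes, and DESeq2 called 6. The call was lost with wells of glial transcripts left out (adjusted p = 0.12), without the library as a block (adjusted p = 1.00) and at cuts of 20 CPM (0.29) and 100 CPM (0.46), where the difference ran from -7.72 to -0.90. *Gabrg1* was 49.4, 118 and 276 CPM against 11.3, 30.7 and 193 (lowest, median and highest), higher in 3 of 3 libraries but with an adjusted p of 1.00.

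Of the 55 *Uts2b*-positive wells of p1, 29 were also positive for *Gabrg1* (52.7%, and 13.8% of the other wells) and 31 for *Efna5* (56.4% and 16.7%), while 2 were positive for *Tox* (3.64% and 33.8%). These shares pool libraries in which 1.85% to 38.0% of wells were *Uts2b*-positive. The median depth was 76715 UMIs in the *Uts2b*-positive and 50609 in the other p1 wells, and the part of depth was not tested. Within libraries *Efna5* differed by 0.68 (SE 0.35, adjusted p = 1.00), which was not called and turned to -0.062 without library 5. *Reg3b* and *Gal* were 3.94 and 2.13 higher on the log2 scale in *Uts2b*-positive wells at p1, with adjusted p of 0.38 and 0.91, neither called. The difference between the ages was tested in 1 fit, and 0 of 13459 genes passed (802 at an unadjusted p under 0.05, lowest adjusted p 0.18, edgeR only). For *Tox* the 2 effects differed by -1.65 (adjusted p = 0.88) and for *Gabrg1* by -0.96 (adjusted p = 0.86), so no difference between ages was shown.

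**Figure D5:**
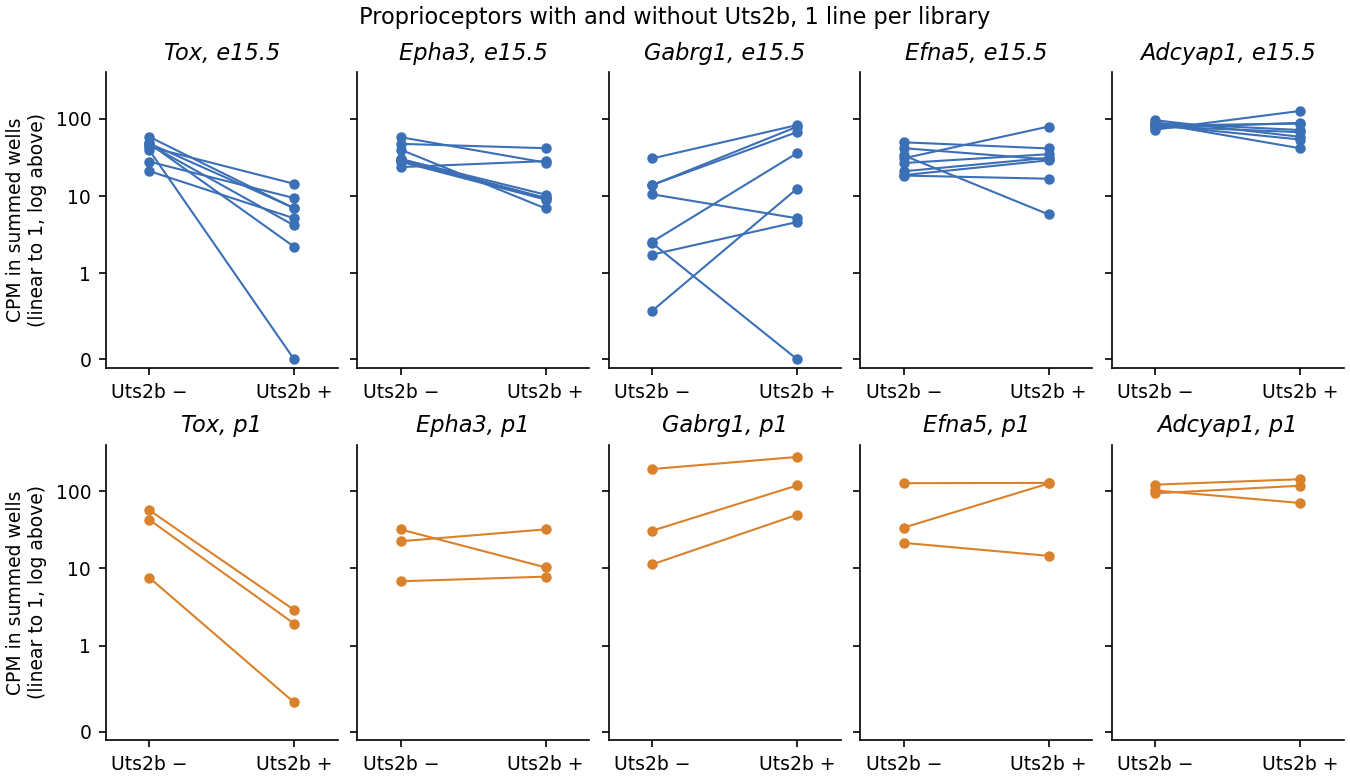
CPM (linear to 1, logarithmic above) of 4 muscle-type markers and *Adcyap1* in *Uts2b*-negative (left of each panel) and *Uts2b*-positive (right) proprioceptor wells, summed per library, at e15.5 (blue, 8 libraries) and p1 (orange, 3 libraries); each line is 1 library. *Tox* is lower at the right end of all 8 and all 3 lines, *Gabrg1* is higher there on 6 of 8 and 3 of 3, and *Adcyap1* on 3 of 8 and 2 of 3.

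*Sct*-positive wells were compared in the same way. Since 48 of the 70 were also *Uts2b*-positive, the 2 comparisons share wells and are not independent. Over 7 e15.5 libraries *Epha3* was 3.002, 9.45 and 24.9 CPM in *Sct*-positive and 22.9, 29.5 and 53.8 CPM in *Sct*-negative wells, lower in 7 of 7 libraries. It fell by 1.37 (SE 0.26, adjusted p = 0.011). *Gabrg1* was 4.02, 46.4 and 91.1 CPM against 0, 6.82 and 49.9 and rose by 2.11 (SE 0.44, adjusted p = 0.018) in 6 of 7 libraries, library 8 being the exception. That call was lost without library 7 (adjusted p = 0.060) or library 10 (0.066). *Tox* differed by -0.95 (-1.86 to -0.03, adjusted p = 0.37) and was lower in 6 of 7 libraries.

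Of the muscle-type list 4 genes were tested in that comparison, with 1 higher and 1 lower, against 3.22% of 10801 genes (1.68% higher and 1.55% lower). The 348 genes called became 165 without library 10, 178 without library 8 and 223 without library 9. *Gal* differed by 1.07 (0.22 to 1.92, adjusted p = 0.25), *Adcyap1* by -0.12 (-0.39 to 0.16) and *Reg3b* by -0.06 (-2.38 to 2.27). *Uts2b* was higher in the *Sct*-positive wells of 7 of 7 libraries, at 53.0 to 150 against 21.9 to 58.0 CPM, again without a test. At p1 only 1 library had 3 *Sct*-positive wells, and no test was made.

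*Reg3b*-positive wells could be compared in e15.5 libraries 7 to 10, which held only 3, 7, 8 and 6 of them. *Gabrg1* was 344, 172, 136 and 6.72 CPM in the *Reg3b*-positive wells of these libraries and 11.0, 14.0, 21.2 and 15.5 CPM in the others. It was far higher in libraries 7, 8 and 9, where *Reg3b* was also high, and lower in library 10. It rose by 2.99 (SE 0.49, adjusted p = 0.0036). In wells, 14 of 26 *Reg3b*-positive wells were *Gabrg1*-positive (53.8%) against 5.18% of the others. These shares pool all 10 e15.5 libraries, whereas 24 of the 26 *Reg3b*-positive wells lay in libraries 7 to 10. The part of the library in them was not tested.

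*Gal* was 56.0, 5.72, 10.3 and 3.36 CPM in the *Reg3b*-positive and 44.5, 44.3, 45.6 and 87.2 CPM in the *Reg3b*-negative wells of libraries 7 to 10. It fell by 2.15 (SE 0.44, adjusted p = 0.014), lower in 3 of 4 libraries, and lost the call without library 8 (adjusted p = 0.092) or library 10 (0.078). *Tox* differed by -0.34 (-0.96 to 0.28) and *Epha3* by -0.91 (-1.51 to -0.30, adjusted p = 0.15), neither called, the latter lower in 4 of 4 libraries. *Sct* (0.09), *Uts2b* (0.37) and *Adcyap1* (0.10) did not pass. In this comparison 1 of 4 muscle-type genes tested was called, against 4.15% of 11690 genes (2.36% higher and 1.79% lower), and the 485 genes called became 154 without library 8.

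The genes that process and store peptides were called in both directions. Of 16 such genes, all tested, 6 were higher and 3 lower at p1 than at e15.5, against the 62.7% of all genes given above. *Pam*, the amidating enzyme, rose by 2.20 (SE 0.14, adjusted p = 1.0e-10), *Pcsk1*, a prohormone convertase, by 1.195 (SE 0.23, adjusted p = 0.00013), *Chga*, a granin, by 1.05 and *Ptprn2*, a granule membrane protein, by 1.08. *Ptprn* fell by 0.88, *Pcsk1n*, which encodes an inhibitor of *Pcsk1*'s product, fell by 0.53, and *Cpe*, the carboxypeptidase, fell by 0.35.

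Between other sensory wells and proprioceptors of e15.5, where 24.7% of 11076 genes were called (12.1% higher and 12.6% lower), 2 of the 16 were higher and 4 lower. *Scg2* and *Chgb*, both granins, fell by 3.41 (SE 0.31) and 2.20 (SE 0.27) in the other sensory wells, and *Pcsk1* and *Vgf* rose by 1.63 and 1.44. *Ptprn* fell by 0.87 and *Cpe* by 0.65. The *Vgf* call was lost without library 4 or 5 (adjusted p up to 0.055) and that of *Cpe* without library 4 (0.062). With collagen-free wells of the nociceptor cut alone, where 11.8% of 10971 genes were called, *Scg2* was lower by -2.93 and *Chgb* by -1.83, and *Pcsk1* (1.74) and *Vgf* (1.88) were higher, all 4 called, while *Ptprn* (-0.57) and *Cpe* (-0.27) were no longer called. *Scg3*, a granin (0.50, adjusted p = 0.017), and *Syt4*, a granule synaptotagmin (0.65, adjusted p = 0.041), were called higher there, which made 4 of the 16 higher and 2 lower.

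Within proprioceptors *Pcsk1* rose by 1.08 in *Uts2b*-positive e15.5 wells (SE 0.22, adjusted p = 0.012) and *Pam* fell by 0.92 (SE 0.18, adjusted p = 0.010). *Cpe* rose by 0.23 and *Syt4* by 0.35 there. The call of *Pcsk1* was lost without library 8, 9 or 10 (adjusted p up to 0.062) and that of *Cpe* without library 8 or 9 (up to 0.058). In *Reg3b*-positive wells *Scg2* rose by 1.28 (SE 0.16, adjusted p = 0.00065), *Pcsk2*, the second convertase of neurons, by 0.72 and *Cpe* by 0.43, while *Pam* fell by 1.295. The *Pam* call was lost without library 8 (adjusted p = 0.21). *Pcsk1n* was 0.32 higher, a call lost on leaving out any 1 of the 4 libraries. In *Sct*-positive wells *Pcsk2* rose by 0.52 and *Cpe* by 0.32, and both calls were lost on leaving out any 1 of libraries 6 to 10. None of the 16 was called at p1 between *Uts2b*-positive and negative wells (1 at an unadjusted p under 0.05 in edgeR).

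The other peptide precursors were mostly too sparse to test. Of 24, 5 had enough counts for the age comparison, with 1 higher and 2 lower, against 30.7% and 32.0% of all genes. *Nts* (neurotensin) fell by 3.67 (SE 0.66) and *Pdyn* (prodynorphin) by 3.03 (SE 0.55) at p1, and *Cartpt* rose by 2.01 (SE 0.67, adjusted p = 0.013). Within e15.5 proprioceptors *Nts* fell by 2.26 in *Uts2b*-positive wells (SE 0.44, adjusted p = 0.0092) and by 4.37 in *Reg3b*-positive wells (SE 0.76, adjusted p = 0.0057), the latter call being lost without library 8 (-3.24, adjusted p = 0.11). It was at most 28.2 CPM in the proprioceptor sum of any library. *Tac1*, which encodes substance P, was lower by -1.60 in other sensory than in proprioceptor wells (adjusted p = 0.026), a call that was lost in collagen-free wells of the nociceptor cut (-0.85, adjusted p = 0.30).

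Receptors for the members or for other peptides of their families were sparse, and 9 of 24 could be tested between the ages. Of these, 2 were higher and 4 lower at p1, a share near the 62.7% of all genes. *Sstr1*, a somatostatin receptor, rose by 2.78 (SE 0.26) and *Ramp1*, which forms the receptor for the calcitonin gene-related peptides with *Calcrl*, by 1.85 (SE 0.29). *Ramp3* fell by 1.77 (SE 0.28), *Npy1r*, a neuropeptide Y receptor, fell by 1.401 (SE 0.30) and *Npr2*, a natriuretic peptide receptor, fell by 0.90 (SE 0.11). *Galr1*, a galanin receptor, fell by 1.42 (adjusted p = 0.046), a call lost in 15 of 27 alternatives. *Npy1r* was also lower, by -2.11, in other sensory than in proprioceptor wells (SE 0.51, adjusted p = 0.0091) and 0.69 higher in *Uts2b*-positive than in negative proprioceptors (SE 0.15, adjusted p = 0.014), the latter call being lost without library 9 (adjusted p = 0.055).

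The genes most like *Sct*, *Uts2b* and *Reg3b* were ranked by the median Pearson r of log2(CPM + 10) within a library over proprioceptor wells, as a description, since all wells of a library share its preparation and depth differs between them. For *Sct* at e15.5 (10 libraries) *Batf3* led with 0.50 (-0.17 to 0.65 in single libraries) and *Uts2b* followed with 0.46 (-0.27 to 0.59). For *Uts2b*, *Pappa2* (0.46), *Sct* (0.46), *Ppp1r3b* (0.44), *Ust* (0.44) and *Ccdc74a* (0.42) led at e15.5. At p1 (6 libraries) *Rprm* (0.39), *Selenom* (0.37), *Idh2* (0.37), *Gm9755* (0.36) and *Gabrg1* (0.36) led. For *Reg3b* at e15.5 (8 libraries) *A630023A22Rik* (0.50), *Mgam* (0.50), *Pigz* (0.44), *Shisa6* (0.44) and *C630043F03Rik* (0.42) led, and single libraries ranged widely, from -0.05 to 0.80 for *A630023A22Rik*.

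The promoters of *Sct* and *Uts2b* were compared because the 2 genes were found together in wells. The 250 bases before the RefSeq start (GRCm38.p6, minus strand) are printed for *Sct* (chr7:141279134-141279383) and *Uts2b* (chr16:27370240-27370489), with matches to TATAAA on either strand in capitals.

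Sct promoter: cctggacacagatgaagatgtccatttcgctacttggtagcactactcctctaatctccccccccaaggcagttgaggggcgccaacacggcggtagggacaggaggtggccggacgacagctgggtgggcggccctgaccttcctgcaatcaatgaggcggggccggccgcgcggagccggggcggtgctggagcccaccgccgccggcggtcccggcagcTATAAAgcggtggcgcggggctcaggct

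Uts2b promoter: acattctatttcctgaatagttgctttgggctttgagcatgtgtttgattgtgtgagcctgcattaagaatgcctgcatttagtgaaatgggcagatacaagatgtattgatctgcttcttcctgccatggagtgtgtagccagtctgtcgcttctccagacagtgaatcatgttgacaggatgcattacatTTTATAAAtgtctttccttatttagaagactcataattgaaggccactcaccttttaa

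The *Sct* window is 68.0% G and C and that of *Uts2b* 39.6%. TATAAA was in both windows and in those of *Reg3b*, *Adcyap1* and *Nppb*, 5 of the 9 members with a RefSeq promoter. It was in 12.4% of 32851 RefSeq promoters, searched over the same 250 bases before the start. In *Uts2b* matches on the 2 strands overlap. TGTGGT, the core bound by Runx proteins, was in 0 of 9 (14.0% of all promoters), TAATTA, a homeodomain core, in 0 of 9 (4.84%) and CCGGAA, an ETS core, in that of *Gal* alone (12.0%). A match describes letters in a window and no binding was measured.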

How the data were processed

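Single DRG cells of 16 libraries were profiled by CEL-Seq2. The authors demultiplexed, mapped and counted the reads with the R package scruff, and the deposited values are raw UMI counts per gene and well, with no well filtered out. The submitters' processing notes name mm10 and GRCm38. Of 49671 Ensembl IDs, 49412 matched a symbol in GENCODE M21 (GRCm38). Each library's total, given above, limits its precision. No 2 wells had identical counts, and wells with 2 cells were not removed. The members, gene lists and tests were chosen with earlier results of these data known.

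Wells with at least 10000 UMIs and 100 CPM of *Avil* + *Isl1* were kept. Proprioceptors had at least 100 CPM of *Pvalb* + *Runx3* and 200 CPM of *Etv1* + *Ntrk3*. Other sensory wells needed 100 CPM of the summed nociceptor markers (not all of which are reported here) or, failing that, of the mechanoreceptor markers. Collagen transcripts meant at least 1000 CPM of *Col1a1* + *Col1a2*. Counts were summed per library and group (at least 5 wells by age, 3 otherwise), and libraries were the replicates. Sums were tested in R (version 4.3.3) with edgeR (version 4.0.16), using filterByExpr, TMM scaling and the quasi-likelihood F test, with Benjamini-Hochberg adjustment over all tested genes and a threshold of 0.05. The library was a block except between ages. Intervals of log2 differences are 1.96 SE to each side. DESeq2 (version 1.42.0), other cuts and each library left out were alternatives. The tests were checked on simulated data with 200 genes raised 4-fold, of which 92.5% to 99.5% were recovered. Other genes made up 2.45% to 6.13% of the calls, but 15.5% in the test of *Uts2b* at p1. Intervals of shares are exact binomial at 95%, and a count of 0 was read as up to 3. Tables and plots used Python (version 3.11.15), pandas (version 2.3.3), NumPy (version 2.4.6), SciPy (version 1.17.1) and Matplotlib (version 3.10.9).

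Named genes were all members and, from each list, at most the 6 called genes of smallest p per comparison, with genes of expected role that did not pass, and the genes most like *Sct*, *Uts2b* and *Reg3b*.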

Additional observations from a re-analysis of the deposited data

Results flagged for a closer look

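Of 19 sets of library values of the members examined for 1 library far from the rest, 8 held one. A set with UMIs in 1 library alone is flagged by construction, so this count is not set against a chance rate. *Reg3b* at e15.5 was highest in library 8, at 403 CPM from 1891 UMIs, with the next library at 173 CPM. *Calca* at p1 was highest in library 5, at 21.6 CPM from 92 UMIs, against 5.67 in the next. *Calcb* was highest in e15.5 library 5 (1.17 CPM, 7 UMIs) and in p1 library 6 (2.29 CPM, 10 UMIs). The other 4 rest on 1 or 2 UMIs each: *Nppb* in e15.5 library 8 (0.427 CPM) and p1 library 2 (0.148 CPM), and *Sst* in e15.5 library 1 (0.734 CPM) and p1 library 1 (0.114 CPM).

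*Npy* and *Sst* were found mainly outside the sensory wells. In 71 deep e15.5 wells of 8 libraries that passed neither the *Avil* and *Isl1* cut nor the collagen cut, *Npy* was 242 CPM and *Sst* 15.04 CPM, against 1.61 and 0.151 CPM in proprioceptors. These wells held 58.9% of all *Npy* UMIs and 75.9% of all *Sst* UMIs of the deep e15.5 wells.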

How the results depend on the processing

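Libraries are the replicates, single wells hold few UMIs of any peptide, and a gene missing from a well or a library was not detectable at its depth rather than absent. *Calca*, *Calcb*, *Npy*, *Sst* and *Nppb* had too few counts in proprioceptors for a test between ages, and *Sct*- and *Reg3b*-positive wells of p1 could not be tested. The causes of the shifts below were not tested unless the setting itself removes wells or genes. Of the values of single genes recomputed under an alternative, 1242 kept their direction and side of the threshold, 130 lost the call, 14 gained one and 18 changed sign.

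The age comparison kept within 1.5 times its 8754 calls throughout, 8175 to 9141 with single libraries left out. With the replicate block, which paired libraries by number, *Reg3b* was 1.51 higher at p1. The correlation of same-numbered libraries was -0.317 to 0.287 over 2000 genes and 0 of 6 correlated best with their own number, so the numbers do not pair them. The class comparison (2733 genes) gave 1783 without collagen wells and 1293 with the collagen-free nociceptor cut, both settings chosen after seeing the data, and 2022 to 2734 with libraries left out.

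Calls for *Uts2b*-positive e15.5 wells (374) became 1007 with no filter on low counts, 133 without the library as a replicate block and 218 to 418 with libraries left out, the lowest without library 9 and 236 without library 8. For *Sct* (348) they became 1021, 164 and 165 to 386, and also 173 under the mitochondrial filter, 587 at 100 CPM and 565 at 20 CPM. For *Reg3b* (485) they became 946 with no filter, 314 under the mitochondrial filter, 186 at 20 CPM and 154 to 433 with libraries left out. For *Uts2b* at p1 (2) they became 6 with DESeq2, 33 with more wells per sum, 76 with no filter, 0 without the replicate block, 7 at 100 CPM, 10 at 20 CPM, 1 without glial wells, and 4 to 33 with libraries left out (without library 5 and library 1, and 12 without library 2).

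Some differences that were not called changed sign. At 20 CPM *Adcyap1* was 0.012 in *Sct*-positive wells and *Efna5* -0.15 in *Uts2b*-positive wells of e15.5. With class cuts doubled *Efna5* was 0.082, 0.24 and -0.12 in *Reg3b*-, *Sct*- and *Uts2b*-positive wells of e15.5. In *Uts2b*-positive wells of p1, *C1ql2* was -0.22 without the replicate block, and *Efna5* -0.42 and *Epha3* 0.46 at 100 CPM. *Reg3b* in *Sct*-positive wells was 0.23 with DESeq2, 0.46 under the mitochondrial filter and 0.032 without glial wells. With libraries left out *Reg3b* there ran from -1.68 to 1.48, *Efna5* with *Uts2b* from -0.15 to 0.37 at e15.5 and from -0.062 to 1.27 at p1, *Epha3* with *Uts2b* at p1 from -0.77 to 0.34, and *Tox* with *Reg3b* from -0.58 to 0.032.

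Shares of positive wells followed the cut. With any UMI they were 88.1% and 80.3% (e15.5 and p1) for *Adcyap1*, 51.1% and 12.5% for *Gal*, 19.8% and 4.17% for *Reg3b*, 60.7% and 16.4% for *Sct*, and 66.4% and 46.9% for *Uts2b*. At 20 CPM they were 76.3% and 65.6% for *Adcyap1*, 32.5% and 3.06% for *Gal*, 43.2% and 28.9% for *Uts2b*, and 31.9% for *Sct* at e15.5. At 100 CPM they were 27.1% and 28.9% for *Adcyap1*, 13.3% and 0.278% for *Gal*, 10.5% and 1.39% for *Sct*, and 19.5% and 5% for *Uts2b*. Thinned wells gave 45.8% and 48.6% for *Adcyap1* and 20% for *Uts2b* at p1, and wells of at least 20000 UMIs gave 66.0% for *Adcyap1* at p1.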

Other observations

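The 71 deep e15.5 wells that passed neither cut also carried genes of inhibitory neurons, chosen after their values were seen. *Gad1*, a GABA-synthesizing enzyme, was 659 CPM, *Slc32a1*, the vesicular transporter of GABA and glycine, 227 CPM, *Pax2* 508 CPM and *Pnoc*, the nociceptin precursor, 180 CPM, each found in 53.5% to 57.7% of the wells. *Lamp5* was 1026 CPM in 59.2% of them. *Avil* and *Isl1* were 10.3 and 10.9 CPM. *Npy* was 411 CPM in the 37 wells with at least 100 CPM of *Gad1*, which came from 5 libraries, and 47.1 CPM in the other 34 wells. *Adcyap1* was 34.9 CPM over the 71 wells and found in 15 of them.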
